A study of Homo sapiens with 6 samples.

Results

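The ADAM and ADAMTS genes encode 2 related families of zinc metalloproteases, and 38 of them were read here out of 18417 genes measured. Members were all genes whose symbol is ADAM or ADAMTS followed by a number and that had a probe set carrying no other gene symbol, which gave 21 ADAM and 17 ADAMTS genes with 1 probe set each. ADAM5 and ADAM6 fit this rule although the RefSeq table lists them as transcribed pseudogenes, and the other 36 are annotated as protein coding. ADAM7, ADAMTS7 and ADAMTS15 had no such probe set and were not analysed here.

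ADAM proteins are mostly membrane-anchored. Their best-known members cut the outer part of other surface proteins, such as growth factor precursors, Notch receptors and adhesion molecules, and so release it from the cell, a step called shedding. ADAMTS proteins are secreted, bind the extracellular matrix through thrombospondin-type repeats and cut proteoglycans, procollagens and other matrix or plasma proteins. TIMP proteins inhibit many of these enzymes.

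RNA came from A673 and SK-N-MC, established cell lines of Ewing tumor, a cancer of bone and soft tissue driven by a fusion of EWSR1 with an ETS gene. Each line gave 3 arrays: 1 of cells given a non-silencing control siRNA, and 1 each of cells given the STEAP1 siRNAs numbered 2 and 3, all at 5 nM for 48 h. The control of A673 carries the number 2 and that of SK-N-MC none, and the labels do not say whether both lines received the same control molecule. Nothing states that the arrays of a line came from separate cultures, so every p-value measures only the spread between these 6 arrays, which may be technical. Each siRNA was on only 1 array of a line. The spread therefore also holds differences between siRNAs or lines and is not one between replicates of the same condition.

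STEAP1, the target, was between 4.17 and 4.73 on the 4 siRNA arrays, below its control values of 6.23 (A673) and 7.15 (SK-N-MC), on the log2 scale of the deposited intensity used throughout. The Ewing tumor markers CD99, NKX2-2, PRKCB, CCND1, FLI1 and EWSR1 had means from 3.91 to 9.81. The 10 markers of immune, endothelial and epithelial cells that were measured had a median of 1.55 and reached 3.43 for KRT14. In SK-N-MC a list of 19 interferon response genes was lower than in the control array, by a median of -2.65 with siRNA 2 and -1.34 with siRNA 3, and in A673 the medians were -0.08 and -0.04. Between the lines, 14 of these 19 genes were called lower in A673 than in SK-N-MC, with a median difference of -1.81. Any part of the interferon response in differences below, between SK-N-MC arrays or between the lines, was not tested.

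Most ADAM and ADAMTS probe sets were dim in both lines. Only ADAM9, ADAM10, ADAM15, ADAM17 and ADAMTS10 had a mean log2 of 4 or more over the 6 arrays, which is 13.2% of members beside 40.3% of all genes. Another 12 members lay between 2 and 4, and 21 lay under 2, which is 55.3% of members beside 29.7% of all genes. The median of the members' means was 1.65, beside 3.26 over all genes. The brightness of a probe set also depends on its probes and no detection calls were used, so these values do not rank the amounts of different transcripts, and a dim value has no stated floor. Among the 33 dimmer members the difference between the highest and the lowest array was 0.08 to 0.74, with a median of 0.39.

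**Figure D1:**
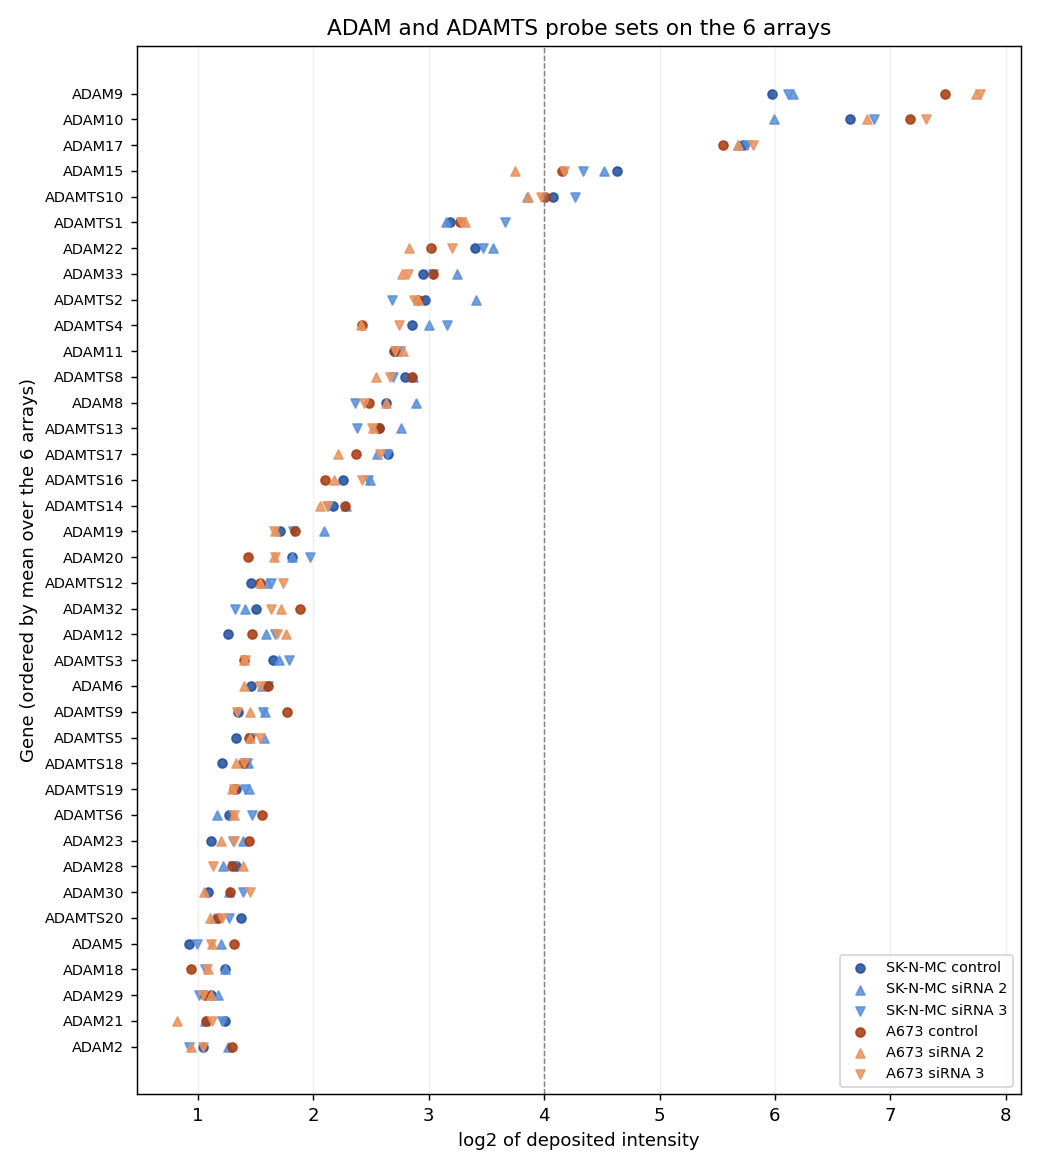
Log2 of the deposited intensity (horizontal axis) of the 38 members on each of the 6 arrays, ordered by the mean over arrays; circles are control arrays, triangles siRNA 2 (up) and siRNA 3 (down), blue is SK-N-MC and orange-brown A673, and the dashed line marks a log2 of 4. Only 5 members had means of 4 or more, and the 3 A673 arrays of ADAM9 stand apart from its 3 SK-N-MC arrays.

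The first comparison asks how the lines themselves differ. ADAM9 was the member with the clear difference and was about 3-fold brighter in A673. ADAM32 was called slightly higher in A673, and ADAM15, ADAM22 and ADAMTS4 slightly higher in SK-N-MC, each by less than 1.5-fold. The remaining 33 members, among them ADAM10 and ADAM17, did not pass the threshold. In all, limma called 2 of 38 members in the direction of A673 and 3 in that of SK-N-MC (Benjamini-Hochberg adjusted p under 0.05 over all genes). The same shares over all genes were 13.5% toward A673 and 11.4% toward SK-N-MC. At an unadjusted p under 0.05 stood 8 members, beside 34.1% of all genes. Of the 5 brighter members 2 were called, beside 38.9% of genes with a mean log2 of 4 or more. Of the 33 dimmer members 1 was called toward A673 and 2 toward SK-N-MC. Among the 11004 genes with a mean log2 under 4, 812 were called toward A673 and 883 toward SK-N-MC. Dim genes were thus called less often, and most members are dim. The members' median difference, A673 minus SK-N-MC, was -0.0428, beside -0.017 over all genes.

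ADAM9 encodes a widely expressed membrane protease with a disintegrin domain. The SK-N-MC arrays read 5.97 (control), 6.16 (siRNA 2) and 6.11 (siRNA 3), and the A673 arrays 7.47, 7.74 and 7.78 in the same order. Every A673 array was above every SK-N-MC array, and within a line the 3 arrays stayed within 0.31 of each other. Matched by siRNA number, and control to control, the A673 array was higher by 1.49 (control), 1.58 (siRNA 2) and 1.66 (siRNA 3). The fitted log2 difference was 1.58 (SE 0.10, 95% interval 1.34 to 1.81, 2.99-fold, limma adjusted p = 1.95e-05). A difference at least as large in either direction was found for 3.08% of all genes. ADAM9 was called under all 13 alternatives tried, at 1.38 to 1.62 and with adjusted p-values of at most 4.26e-04.

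ADAM10 and ADAM17 encode the main sheddases of Notch receptors, growth factor precursors and cytokines. ADAM10 lay at 6.65, 5.99 and 6.86 in SK-N-MC (control, siRNA 2, siRNA 3) and at 7.17, 6.80 and 7.31 in A673. Matched by siRNA number, and control to control, each A673 array was above the SK-N-MC array, by 0.46 to 0.81. The lines still overlapped, since SK-N-MC with siRNA 3 was above A673 with siRNA 2. The fitted difference of 0.59 (SE 0.23, 95% interval 0.07 to 1.12) had a limma adjusted p of 0.102. The call depends on the fit. With the siRNA number as a replicate block, the arrays of the same STEAP1 siRNA are paired. Both controls then count as the same siRNA, which the labels do not state. In that fit the difference of 0.59 had an SE of 0.12 and was called (limma adjusted p = 0.00762). It was also called without the SK-N-MC siRNA 3 array, at 0.83 (limma adjusted p = 0.0227).

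ADAM17 overlapped between the lines, at 5.72, 5.68 and 5.76 in SK-N-MC and at 5.55, 5.68 and 5.81 in A673. The difference was -0.04 (SE 0.11), and its 95% interval of -0.29 to 0.21 holds only differences well under 1.5-fold. Without either control array its sign was positive, at 0.02.

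ADAM15 encodes a membrane protease that also binds integrins through its disintegrin domain. It lay at 4.63, 4.52 and 4.34 in SK-N-MC and at 4.15, 3.75 and 4.17 in A673, with no overlap. The difference was -0.47 (SE 0.13, limma adjusted p = 0.0355). The call held without the A673 siRNA 3 array and was lost without any 1 of the other 5 arrays (adjusted p 0.0528 to 0.136) and with 16 added to each intensity (-0.25, adjusted p = 0.0665).

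The other members with a known or proposed shedding role were dim. ADAM8, ADAM12, ADAM19, ADAM28 and ADAM33 had means of 1.28 to 2.98, and none was called between the lines. ADAM12, which cleaves a growth factor precursor and insulin-like growth factor binding proteins, lay at 1.26 to 1.67 in SK-N-MC and 1.47 to 1.76 in A673 (difference 0.13, SE 0.10). ADAM19, a protease that acts on neuregulin, lay at 1.71 to 2.09 and 1.66 to 1.84 (difference -0.15, SE 0.13). Both genes overlapped between the lines.

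ADAM11, ADAM22 and ADAM23 are neural family members whose protease domain has no working active site, and ADAM22 and ADAM23 act as receptors of LGI proteins at synapses. ADAM22 lay at 3.40, 3.56 and 3.47 in SK-N-MC and at 3.02, 2.83 and 3.20 in A673, so that no A673 array reached the SK-N-MC range. The difference was -0.46 (SE 0.13, limma adjusted p = 0.0294). Leaving out the A673 siRNA 3 array kept the call. It was lost without any 1 of the other 5 arrays (adjusted p 0.0653 to 0.108), with a trend in the spread (0.051) and with 16 added to each intensity (-0.17, 0.0547). ADAM11, at 2.70 to 2.78 on all arrays, and ADAM23, at 1.11 to 1.44, showed differences of 0.01 and 0.05. The value of ADAM23 was -0.08 without either control array.

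The 7 ADAM genes best known from testis and sperm, ADAM2, ADAM18, ADAM20, ADAM21, ADAM29, ADAM30 and ADAM32, had means of 1.08 to 1.72. ADAM32 was the only one called. It lay at 1.50, 1.41 and 1.32 in SK-N-MC and at 1.88, 1.72 and 1.63 in A673, a difference of 0.34 without overlap (SE 0.10, limma adjusted p = 0.0465). All of these values are dim, and the call was lost without any 1 of the 6 arrays (adjusted p 0.0543 to 0.181), with the siRNA number as a replicate block (0.34, adjusted p = 0.0556), and with 16 added to each intensity (0.05, adjusted p = 0.141). The pseudogenes ADAM5 and ADAM6 were as dim, at 0.92 to 1.61 on all arrays, and differed by 0.14 and -0.02. ADAM20 differed by -0.27 (SE 0.11, limma adjusted p = 0.109) without overlap between the lines.

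Among the ADAMTS enzymes that cut proteoglycans of the aggrecan and versican type, ADAMTS1, ADAMTS4, ADAMTS5, ADAMTS8, ADAMTS9 and ADAMTS20, only ADAMTS4 was called. It lay at 2.85, 3.00 and 3.16 in SK-N-MC and at 2.42, 2.41 and 2.74 in A673, with no overlap (difference -0.48, SE 0.12, limma adjusted p = 0.0233). The call was lost without either control array, without SK-N-MC siRNA 3 or A673 siRNA 2 (adjusted p 0.0793 to 0.0918), and with 16 added to each intensity (-0.14, 0.0566).

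ADAMTS1 lay at 3.18, 3.15 and 3.66 in SK-N-MC and at 3.27, 3.31 and 3.28 in A673. Its difference was -0.05 (SE 0.15), or 0.12 without SK-N-MC siRNA 3, the highest array. ADAMTS5, the other well-studied aggrecanase, lay at 1.33 to 1.57 on all 6 arrays (difference 0.02, SE 0.11, and -0.02 without either control array).

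The procollagen-processing enzymes ADAMTS2, ADAMTS3 and ADAMTS14 had means of 1.56 to 2.96 and no call. ADAMTS3 came nearest: its SK-N-MC arrays lay at 1.65, 1.70 and 1.79 and its A673 arrays at 1.40, 1.40 and 1.41 (difference -0.31, SE 0.10, limma adjusted p = 0.0571), and it was called with a trend in the spread. The other 8 ADAMTS genes include ADAMTS13, which cuts von Willebrand factor, ADAMTS10 and ADAMTS6, which are linked to fibrillin, and ADAMTS12, which cuts COMP. They differed by -0.23 to 0.09 and none was called. ADAMTS10, the brightest ADAMTS probe set, read 4.08, 3.85 and 4.27 on the SK-N-MC arrays, against 4.01, 3.86 and 3.97 for A673 (difference -0.12, SE 0.13).

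Counted without a model, 2 members (5.26%) had all A673 arrays above all SK-N-MC arrays and 6 (15.8%) had them all below. Over all genes these shares were 19.4% and 18.5%, and they were not counted by brightness.

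**Figure D2:**
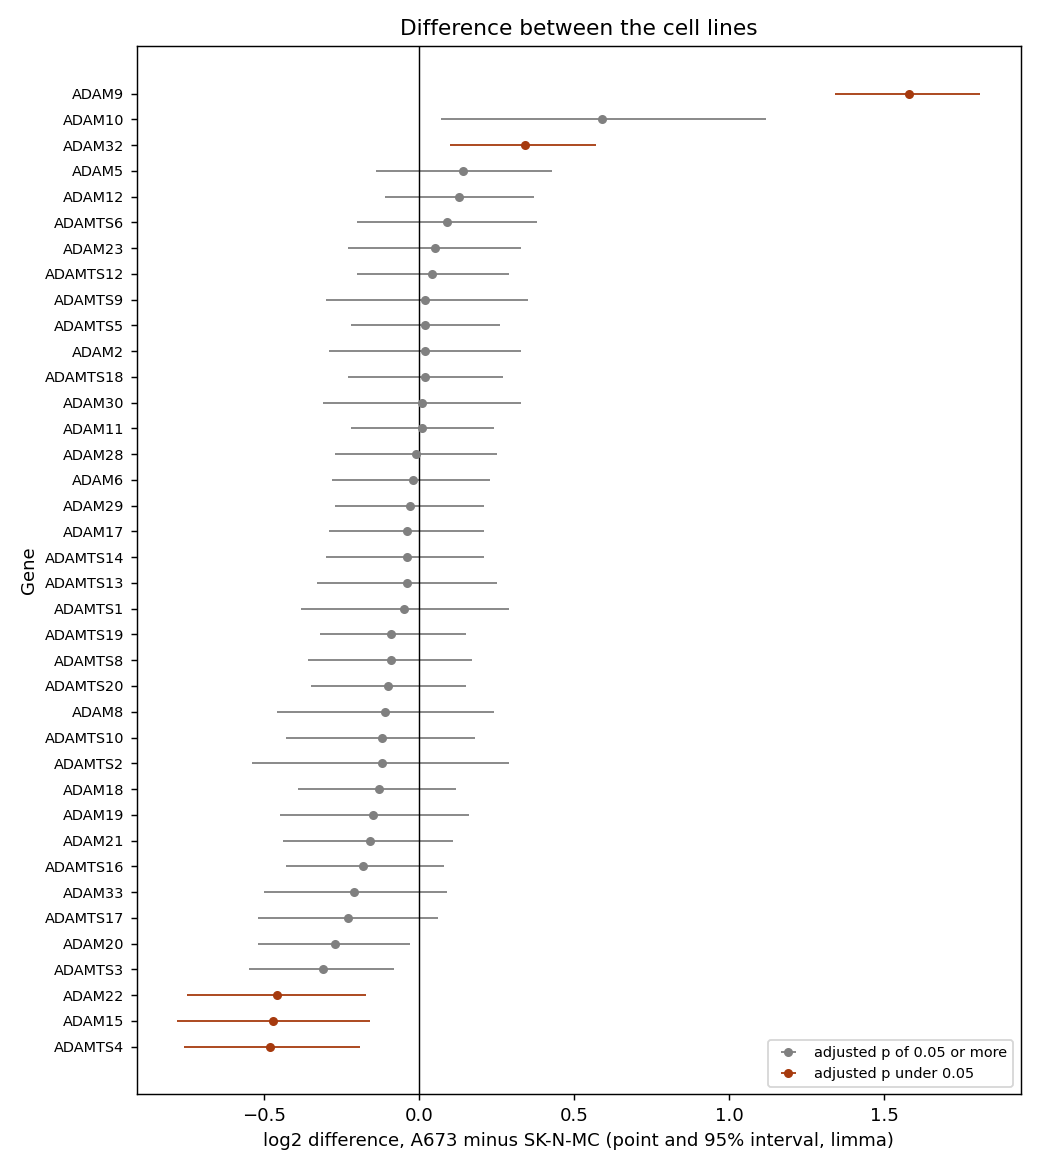
Fitted log2 difference between the lines, A673 minus SK-N-MC (horizontal axis), for each of the 38 members over 6 arrays; points are limma estimates, bars 95% intervals, and red marks an adjusted p under 0.05 over all genes. ADAM9 stands at 1.58, and the other 4 called members lie between -0.48 and 0.34.

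Genes for proteins that regulate these proteases, or are cut by them, were read from lists of such genes. Of 22 listed regulators, 5 were called toward A673 and 6 toward SK-N-MC. Over all genes 13.5% were called toward A673 and 11.4% toward SK-N-MC. Of genes with a mean log2 of 4 or more, 38.9% were called in either direction. TIMP3, the inhibitor of ADAM17 and of aggrecanases, lay at 6.68, 6.49 and 6.03 in SK-N-MC and at 4.25, 4.10 and 3.92 in A673 (difference -2.31, SE 0.14, limma adjusted p = 1.63e-05). TSPAN33, a tetraspanin that carries ADAM10, differed by -1.25 (SE 0.13) and the broad protease inhibitor A2M by -1.71 (SE 0.20), with no overlap between the lines for any of these 3 genes. The A673 arrays of TSPAN33 and A2M were dim, at most 2.05. Other TIMP and tetraspanin genes of the list were called toward A673. These were TIMP2 at 0.75 (SE 0.12), TIMP4 at 1.02 (SE 0.12) and TSPAN5 at 0.72 (SE 0.17). Of 6 measured ADAMTS-like genes, which resemble ADAMTS proteins but have no protease domain, 2 were called, both higher in SK-N-MC. ADAMTSL3 stood at -1.50 (SE 0.14) and ADAMTSL5 at -0.55 (SE 0.17), the latter near the threshold (limma adjusted p = 0.0455).

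Of 30 measured surface proteins known as shedding substrates, 10 were called toward A673 and 6 toward SK-N-MC. CDH2 (N-cadherin) differed by 3.13 (SE 0.19), and the Notch ligands JAG1 and JAG2 by 2.48 (SE 0.16) and -1.67 (SE 0.13). The SK-N-MC arrays of CDH2 were dim, at most 2.28. Of 15 matrix substrates, 2 were called toward A673 and 4 toward SK-N-MC. Fibrillin-1 (FBN1) differed by 2.68 (SE 0.12), fibronectin (FN1) by 2.92 (SE 0.26) and decorin (DCN) by -2.03 (SE 0.25). The SK-N-MC arrays of FBN1 (at most 1.95) and the A673 arrays of DCN (at most 1.70) were also dim. Over all genes 24.8% were called in either direction.

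The next comparison asks what followed STEAP1 silencing in both lines. No member passed the test: limma called 0 of 38 members, and 0% of all genes. STEAP1 itself, although lower on every siRNA array than in the control of its line, was not called either. The absence of a call therefore does not show that a member was unchanged. At an unadjusted p under 0.05 stood 1 member, ADAM12, beside 4.63% of all genes. The members' median difference was 0.024, beside -0.005 over all genes, and single members ranged from -0.20 to 0.31. All 38 adjusted p-values were at least 0.989. Of the regulators, ADAMTS-like genes and substrates, 0 were called in this or any later comparison.

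With the same sign in all 4 siRNA arrays, 6 members were higher than the control of their line (15.8%, beside 10.6% of all genes) and 1 was lower (2.63%, beside 11.2%). The count takes any sign, however small the change. ADAM11 and ADAMTS3 were among the 6 with changes in A673 that round to 0.00, and ADAMTS5 with one of 0.01. Both siRNA arrays of a line are set against the same control array, so these 4 values are not independent. ADAM12 was higher by 0.33 and 0.40 in SK-N-MC (siRNA 2, siRNA 3) and by 0.29 and 0.21 in A673 (fitted difference 0.31, SE 0.11, unadjusted p = 0.0222). The whole range of ADAM12 over the arrays was 1.26 to 1.76, and the difference was 0.05 with 16 added to each intensity.

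ADAM9 was higher by 0.19 and 0.14 in SK-N-MC and by 0.28 and 0.31 in A673 (0.23, SE 0.11, limma adjusted p = 0.989). ADAMTS16, a dim ADAMTS gene, was higher by 0.23, 0.21, 0.08 and 0.33 in the same order (0.21, SE 0.12), and ADAM32, the lower one, by -0.09, -0.18, -0.16 and -0.25 (-0.17, SE 0.11). None of these differences passed the test. For ADAM9 the 95% interval of -0.02 to 0.48 holds no fall of more than 0.02 and no rise as large as the difference between the lines.

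ADAM17 differed by 0.10 across the lines (SE 0.11, 95% interval -0.16 to 0.36) and ADAM10 by -0.17 (SE 0.24, 95% interval -0.72 to 0.39), or 0.03 without the SK-N-MC siRNA 2 array. ADAM19, ADAM22 and ADAM23 differed by 0.04, 0.06 and 0.02, with signs that turned when single arrays were left out. ADAMTS1 and ADAMTS5 differed by 0.13 (SE 0.15) and 0.12 (SE 0.11).

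Within each line the same held. In SK-N-MC limma called 0 of 38 members, beside 0.00543% of all genes, and 0 members had an unadjusted p under 0.05 (5.12% of all genes). Of the 5 brighter members, ADAM10 differed most, by -0.22 (SE 0.37), followed by ADAM15 at -0.21 (SE 0.22), ADAM9 at 0.16 (SE 0.16), ADAMTS10 at -0.02 (SE 0.21, 0.03 after a second quantile normalization) and ADAM17 at 0.00 (SE 0.17). ADAM10, ADAM17 and ADAMTS10 had opposite signs with siRNA 2 and siRNA 3. Among the 33 dimmer members 23 were positive and 10 negative. Over all genes with a mean log2 under 4, 6254 were positive and 4746 negative, and over the brighter genes 2784 were positive and 4629 negative.

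In A673 limma called 0 of 38 members and 0% of all genes, with 0 members at an unadjusted p under 0.05 (3.35% of all genes). ADAM9 stood at 0.29 (SE 0.16), ADAM17 at 0.20 (SE 0.17), ADAM15 at -0.19 (SE 0.22), ADAM10 at -0.11 (SE 0.37) and ADAMTS10 at -0.10 (SE 0.21). The value of ADAM15 came from 1 array: it was 0.01 without A673 siRNA 2. Only ADAM10 moved by 0.5 or more from its control in any siRNA array of either line.

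Tested directly, the difference between the responses (A673 minus SK-N-MC) was called for 0 members and for 0% of all genes. The brighter members differed by 0.19 (ADAM17, SE 0.24), 0.13 (ADAM9, SE 0.23), 0.11 (ADAM10, SE 0.52), 0.01 (ADAM15, SE 0.31) and -0.08 (ADAMTS10, SE 0.30). After a second quantile normalization ADAM9 stood at -0.01 and ADAM10 at -0.03. At an unadjusted p under 0.05 stood 1 member, ADAMTS9 (-0.59, SE 0.23), beside 3.86% of all genes. Opposite signs in the lines, shared by both siRNA arrays of each, were found for 6 members (15.8%) and for 20% of all genes.

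The last comparison asks how far the STEAP1 siRNAs differed from each other. ADAM10 had the largest difference of the 38 members, although it did not pass the test: it was lower with siRNA 2 than with siRNA 3 in both lines, by -0.87 in SK-N-MC and -0.51 in A673. Against the control of its line ADAM10 was at -0.66 and -0.37 with siRNA 2, and at 0.21 and 0.15 with siRNA 3. The siRNA 2 array was the lowest of its line in both cases, and the siRNA 3 array the highest. The fitted difference of siRNA 2 minus siRNA 3 was -0.69 (SE 0.15, 95% interval -1.03 to -0.35, 1.61-fold), with an unadjusted p of 0.00163 and a limma adjusted p of 0.572. A p this small or smaller was reached by 47 genes, 0.255% of all. The difference lay between -0.85 and -0.53 under 12 alternatives, with adjusted p-values from 0.265 to 1.

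Of 38 members limma called 0 between the siRNAs, as it called 0% of all genes, and 2 members had an unadjusted p under 0.05 (6.67% of all genes). The second was ADAM8, a protease of leukocytes, at 0.36 (SE 0.14), a dim gene at 2.36 to 2.89 on all arrays. Of the other brighter members ADAMTS10 differed by -0.26 (SE 0.14), ADAM15 by -0.12 (SE 0.17), ADAM17 by -0.10 (SE 0.14) and ADAM9 by 0.01 (SE 0.13). For ADAM9 and ADAM17 the 95% intervals, -0.30 to 0.32 and -0.42 to 0.22, hold no difference as large as the one fitted for ADAM10. The interval of ADAM17 overlaps that of ADAM10, and the genes were not tested against each other. Among the regulators RECK, a membrane-anchored inhibitor of metalloproteases, also stood at -0.69 (SE 0.16, limma adjusted p = 0.572). It lay at 2.62 and 3.06 with siRNA 2 and siRNA 3 in SK-N-MC and at 2.73 and 3.66 in A673.

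**Figure D3:**
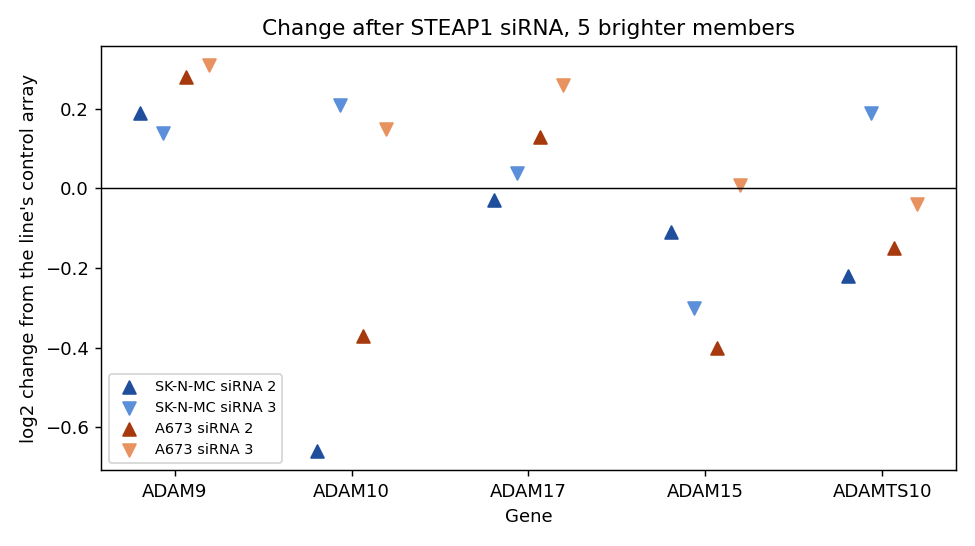
Log2 change from the control array of the same line (vertical axis) for the 5 members with a mean log2 of 4 or more, 1 point per siRNA array; blue is SK-N-MC, orange-brown A673, upward triangles siRNA 2 and downward triangles siRNA 3. ADAM10 lies at -0.66 and -0.37 with siRNA 2 and at 0.21 and 0.15 with siRNA 3, and ADAM9 lies between 0.14 and 0.31 in all 4 arrays.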

How the data were processed

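RNA (200 ng per array) was read on 6 Affymetrix arrays. The authors deposited linear intensities. Per the submitters' processing notes, RMA and Affymetrix Expression Console 1.1 were used, and no source used here gives the step that returned the values from log2. In this work log2 was taken with no further normalization. Of 33297 probe sets, 19460 carried 1 gene symbol in the platform annotation, 1754 several and 12083 none listed. Symbols were updated by gene identifier through RefSeq names (GRCh38.p14; 19429 matched). Of a gene's probe sets the one with the highest mean was used.

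Differences were tested with limma 3.58.1 in R 4.3.3 (lmFit, eBayes, two-sided, Benjamini-Hochberg over 18417 genes, threshold 0.05). Lines and silencing across lines came from a fit with both terms (3 residual degrees of freedom). Responses within lines came from 4 group means, and siRNA 2 against siRNA 3 from a fit with line and a term for each siRNA (2 each). Except in that last fit, both STEAP1 siRNAs counted as replicates of silencing. For the group means the residual spread came only from the siRNA 2 and siRNA 3 arrays of each line. With 1 control array per line, precision is limited by the number of arrays. The fits were run on simulated data with the same spread for every gene. The planted differences lay in brighter genes and were larger than any fitted silencing difference of a member. The simulation therefore does not measure the power for changes of the size reported here.

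The members, the lists and the naming rule were chosen with earlier results of these data known. Named were ADAM9, ADAM10, ADAM12, ADAM17, ADAM19, ADAM22, ADAM23, ADAMTS1 and ADAMTS5, every member called, and up to 3 members per direction with the largest smallest change over the siRNA arrays (across lines) or the largest change among members with a mean log2 of at least 4 (other comparisons). Of each list the 3 genes with the smallest p could be named. ADAM8, ADAM11, ADAM18, ADAM20, ADAMTS3 and ADAMTS9 were named after their values were seen, as were the regulators TIMP2, TIMP4 and TSPAN5. Alternatives changed the normalization, centring, low values, probe sets, prior, siRNA block and arrays.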

Additional observations from a re-analysis of the deposited data

Results flagged for a closer look

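In 6 members both siRNA arrays of SK-N-MC lay above their control and both of A673 below theirs. No member showed the opposite arrangement, but the share of each arrangement over all genes was not counted. All 6 members of the first arrangement had a mean log2 under 4. Among all genes under that level the A673 response minus the SK-N-MC response was negative for 6403 and positive for 4601. The 6 members are 15.8% of members, and 20% of all genes had opposite signs in the lines in either arrangement. The direct test of the difference, A673 response minus SK-N-MC response, gave -0.59 for ADAMTS9, -0.43 for ADAM33, -0.41 for ADAM19, -0.41 for ADAM23, -0.38 for ADAM5 and -0.26 for ADAM6, with SE of 0.23 to 0.26. All had a limma adjusted p of 1, so none of these differences passed the threshold.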

How the results depend on the processing

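For the comparison of lines, 13 alternatives were run. With genes under a mean log2 of 4 left out, 1 member was called higher in A673 and 1 in SK-N-MC, since ADAM22, ADAM32 and ADAMTS4 were then not tested. With log2(intensity + 16) the counts were 1 and 0. Leaving out 1 array gave 1 to 2 members higher in A673 and 0 to 3 higher in SK-N-MC. The cause of these losses was not tested. Counts for all silencing and siRNA comparisons stayed at 0 members. The siRNA numbers name the siRNA and no shared culture or day, and were not taken as pairs in the reported values. The change of siRNA 2 minus siRNA 3 correlated between lines at 0.0663 over all genes. Over the 7413 genes with a mean log2 of 4 or more, ADAM10 among them, the correlation was 0.193. With the siRNA number as a replicate block, ADAM10 was called between lines (0.59, limma adjusted p = 0.00762), and ADAM32 was not (0.34, adjusted p = 0.0556). Among 495 recomputed values of named members, 28 reversed, none of a called difference, and the cause was not tested. After a second quantile normalization ADAMTS10 in SK-N-MC stood at 0.03, and the difference of the responses at -0.01 for ADAM9 and -0.03 for ADAM10. With 1 array left out, the difference between lines ran from -0.10 to 0.02 for ADAM17, -0.08 to 0.12 for ADAM23, -0.17 to 0.12 for ADAMTS1 and -0.02 to 0.07 for ADAMTS5. Silencing across lines ran from -0.34 to 0.03 for ADAM10, -0.17 to 0.24 for ADAM19, -0.01 to 0.15 for ADAM22 and -0.18 to 0.23 for ADAM23. The SK-N-MC response ran from -0.03 to 0.04 for ADAM17, -0.66 to 0.21 for ADAM10 and -0.22 to 0.19 for ADAMTS10, and that of A673 from -0.40 to 0.01 for ADAM15 and -0.37 to 0.15 for ADAM10. Their difference ran from -0.32 to 0.55 for ADAM10 and -0.29 to 0.13 for ADAMTS10, and siRNA 2 minus siRNA 3 from -0.05 to 0.07 for ADAM9 and -0.34 to 0.11 for ADAM15. Where a control array is left out, the response of its line could not be fitted. No background or detection value was used, so how far signal over background limits the 33 dimmer members was not tested.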
